A study of Mus musculus with 15 samples.

Results

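Alveolar macrophages from mice that lack the integrin beta6 subunit were compared with alveolar macrophages from wild type mice. The 5 arrays labelled b6-/-Dox are the beta6 null group and the 5 labelled b6+/+Dox the wild type group. The mice of both groups had been treated with doxycycline, an antibiotic that switches on inducible transgenes. Total RNA of each sample was hybridised on a spotted 2-colour array against a common reference, labelled as a reference of macrophages. The series holds 15 arrays, and the remaining 5 carried RNA of beta6 null mice with a TGFb1 transgene (label b6-/-TGFb+/+Dox), likewise on doxycycline. The members described are all genes that were measured on 3 or more arrays in each group, which were 10811 of the 12909 genes with a symbol on the array. With the probes that have no symbol, 13273 features were tested. The labels give no age, sex or strain, and they do not say whether each array holds RNA of 1 animal or of pooled animals. The p-values therefore rest on the spread among all 15 arrays, part of which may be technical.

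The beta6 subunit pairs with the alphav subunit to form an integrin of epithelial cells, which binds latent TGFb and turns it into its active form. Alveolar macrophages are the resident phagocytes of the airspaces that this epithelium lines. They clear surfactant lipid, are set up by GM-CSF, TGFb and the nuclear receptor Pparg, and make Mmp12, the macrophage elastase, whose rise in the lungs of this mouse is well known.

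Values are log2 ratios of the sample over the reference, after each array was centred on its median. A ratio of 0 means the same level as in the reference, and 1 log2 unit is a 2-fold difference. Neither the base of the logarithm nor the direction of the ratio is stated by the labels or the files. Base 2 was assumed from the values, and every fold given here rests on it. The direction taken here is the likely one, given which channel held the reference and that Mmp12 came out higher in beta6 null, and if it were inverted every sign given here would turn. The SD of an array ran from 0.841 to 2.01, and between 742 and 5610 probes were without a value on an array. The widest were wild type replicate 2 (SD 2.01) and beta6 null replicate 1 (SD 1.998), which also had the most missing values. Of 10 genes that define alveolar macrophages, 7 were measured, 0 passed the test by limma and 5 lay below 0 in the difference. Siglecf moved most (difference -1.98, SE 0.64, adjusted p = 0.223). Each of the 4 beta6 null arrays with a value for it lay below every wild type array. Itgax (0.04) and Fabp4 (0.30) lay above 0. Pparg averaged -3.40 in beta6 null and -2.26 in wild type (difference -1.14, SE 0.35, adjusted p = 0.191).

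Itgb6, the gene disrupted by design, is no check of the labels in these cells, and whether its probes lie in the deleted part is not known. It read 0.23, 0.27, 0.99, 0.61 and -0.12 on the beta6 null arrays and -0.18, 0, 0.42 and -0.21 (replicate 2 without a value) in wild type. The groups overlapped, and the difference of 0.39 (SE 0.40) did not pass (adjusted p = 0.733). Among the 20 genes on each side of Itgb6 on its chromosome, where DNA of the donor strain of a targeted allele can be carried along, 24 were tested and 3 passed, where 1.05% of all genes did. These were Ly75 and Cd302, which lie next to each other and fell, and Dpp4, which rose; the part of that position in their change was not tested.

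In the beta6 null macrophages 126 of the 13273 features passed at an adjusted p of 0.05, which is 0.949%. Of these 48 were higher (0.362%) and 78 lower (0.588%), and 113 had a gene symbol, 1.05% of the 10811 genes tested. The gene lists below were chosen with earlier results of these data known. Their counts of calls are to be read beside this share of all genes. All 15 arrays, with those of the TGFb1 group, entered the estimate of the spread. With the 2 groups fitted alone 45 features passed, 19 higher and 26 lower. The split was 40 higher and 36 lower after quantile normalization, and 30 and 31 with the arrays set to equal spread. At an unadjusted p of 0.05, 1523 features passed (11.5%). The rises ran from 1.09 to 4.72 on the log2 scale with a median of 2.51, and the falls from -1.07 to -4.16 with a median of -1.92. A change of at least 4-fold was seen for 33 of the risen and 36 of the fallen features, and one of at least 8-fold for 14 and 11. The median over all features was -0.05.

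The levels relative to the reference are given as a description, since the features were called on these arrays. Of the 48 that rose, 37 had a wild type mean within 1 of the reference, and 40 had a beta6 null mean above 1. Of the 78 that fell, 54 had a wild type mean within 1, and 69 had a beta6 null mean below -1. Over all features 78.9% of the wild type and 67.8% of the beta6 null means lay within 1 of the reference. Groups that do not overlap were counted over the 6924 features with values on all 10 arrays: in 113 (1.63%) every beta6 null array lay above every wild type array, and in 198 (2.86%) below. Of the 126 called features, 92 had values on all 10 arrays, and in 87 of these the groups did not overlap.

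**Figure D1:**
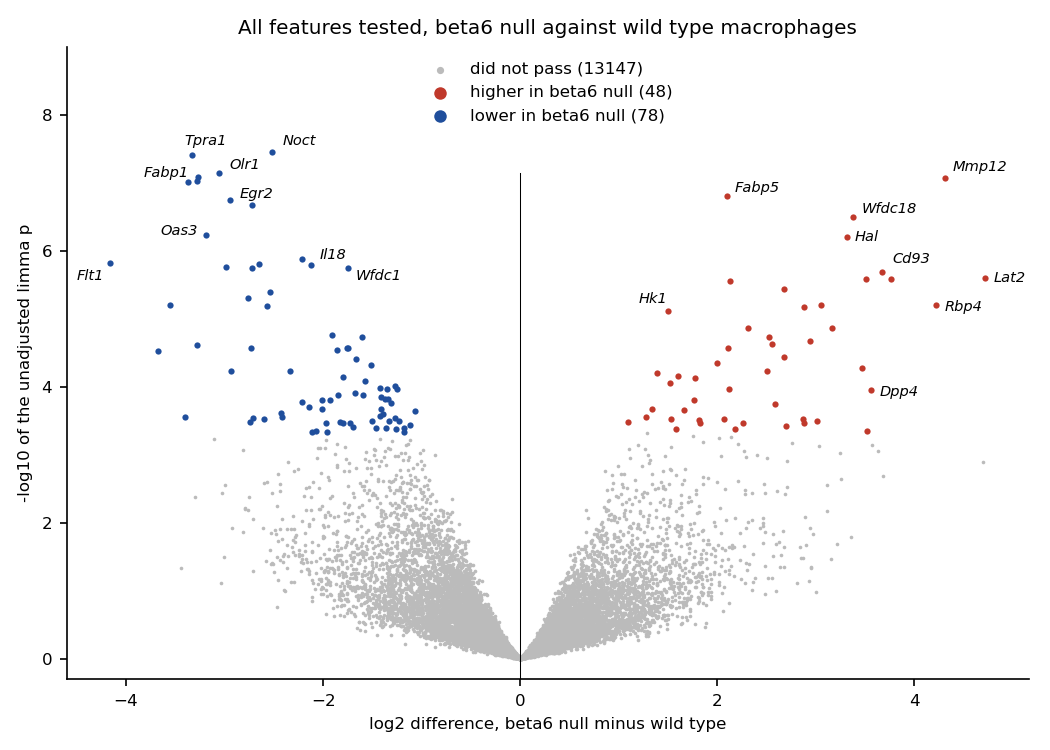
Each point is 1 of 13273 features, with the log2 difference of beta6 null minus wild type on the horizontal axis and -log10 of the unadjusted limma p on the vertical axis. The 48 features that rose are red and the 78 that fell blue; Noct, Tpra1, Olr1, Fabp1 and Mmp12 have the smallest p among named genes.

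RefSeq gives promoter windows (250 bases before to 50 after a gene's start, build GRCm38.p6) for 20 of the 24 genes with the 12 largest rises and 12 largest falls. The 250 bases before the start are shown for a pair that rose, Mmp12 and C3ar1, and a pair that fell, Olr1 and Oas3, because letters read by macrophage and activation factors stand in both pairs. Capitals mark TGANTCA, the binding letters of AP-1, and GAGGAA or its reverse complement TTCCTC, the core read by PU.1 and other ETS factors. Each is given from 5′ to 3′ on the strand of the gene.
Mmp12, chr9:7344147-7344396, plus strand: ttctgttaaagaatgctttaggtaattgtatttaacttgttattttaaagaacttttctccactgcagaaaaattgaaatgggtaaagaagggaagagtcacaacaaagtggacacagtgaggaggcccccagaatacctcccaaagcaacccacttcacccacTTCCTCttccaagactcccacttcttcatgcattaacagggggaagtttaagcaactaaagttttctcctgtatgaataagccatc
C3ar1, chr6:122856158-122856407, minus strand: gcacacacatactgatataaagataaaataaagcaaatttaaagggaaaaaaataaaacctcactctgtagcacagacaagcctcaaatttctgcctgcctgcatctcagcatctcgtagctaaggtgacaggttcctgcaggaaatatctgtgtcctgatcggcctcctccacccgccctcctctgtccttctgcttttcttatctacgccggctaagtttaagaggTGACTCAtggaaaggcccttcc
Olr1, chr6:129507166-129507415, minus strand: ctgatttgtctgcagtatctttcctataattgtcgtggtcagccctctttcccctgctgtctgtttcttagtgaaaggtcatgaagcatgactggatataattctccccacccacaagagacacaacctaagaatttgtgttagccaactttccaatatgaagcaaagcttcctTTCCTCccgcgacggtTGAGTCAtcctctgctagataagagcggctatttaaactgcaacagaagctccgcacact
Oas3, chr5:120777660-120777909, minus strand: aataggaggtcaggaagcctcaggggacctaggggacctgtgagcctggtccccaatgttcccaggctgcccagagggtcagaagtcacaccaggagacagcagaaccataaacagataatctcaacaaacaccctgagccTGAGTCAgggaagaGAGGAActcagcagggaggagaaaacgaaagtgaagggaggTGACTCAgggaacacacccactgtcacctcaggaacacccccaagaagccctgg
The Mmp12 window held the ETS core 86 bases before the start, on the opposite strand. C3ar1 held the AP-1 letters 22 bases before its start. Olr1 held both, the AP-1 letters at 60 and the ETS core at 76 bases, and Oas3 held the AP-1 letters at 109 and 54 bases and the ETS core at 95.

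Over whole windows of 300 bases, searched on both strands with 1 window per gene, the AP-1 letters stood in 4 of 34 risen genes (11.8%) and 6 of 56 fallen genes (10.7%), against 6.43% of the 8690 tested genes with a window. GAGGAA stood in 35.3% of the risen and 37.5% of the fallen genes, against 27.0% of those tested. CAGACA, a box read by SMAD factors downstream of TGFb, stood in 29.4% of the risen and 14.3% of the fallen genes, against 16.6%. TATAAA, the TATA box, stood in 10 of 34 risen genes (29.4%) and 4 of 56 fallen genes (7.14%), against 9.88%. The E-box letters CANNTG stood in 61.8%, 67.9% and 65.9%, and GCGNGGGCG, the letters of EGR factors, in 11.8%, 5.36% and 9.65%. These are descriptions of letters, on motifs chosen with the changed genes known, and the shares were not tested.

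Secreted proteases, their inhibitors and other secreted proteins held some of the largest rises. Mmp12 was 19.8-fold higher, at 4.24, 4.80, 5.88, 4.11 and 3.81 on the beta6 null arrays against 0.33, 0.54, 0.15 and 0.03 (replicate 2 without a value) in wild type (difference 4.31, SE 0.42, adjusted p = 0.000183). It was the 1 called member of 23 metalloproteinases and inhibitors, whose median was 0.15. The sign of Mmp12 was among the grounds for the direction of the ratios, so that sign is no separate result. Mmp13, a collagenase, read 3.56, 4.89, 5.61, 4.13 and 3.33 in beta6 null and 0.11, 1.81, -4.91 and 1.41 (replicate 1 without a value) in wild type. The difference of 4.70 had an SE of 1.14, with wild type replicate 4 far below the rest, and it did not pass (adjusted p = 0.0878), although every beta6 null array lay above every wild type array.

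Rbp4, the plasma carrier of retinol, stood 18.6-fold higher. It read 5.90, 4.74, 5.12, 3.90 and 3.47 in beta6 null and 0.14, 0.65, 0.23, 0.43 and 0.60 in wild type, with a gap of 2.82 between the groups (difference 4.22, SE 0.62, adjusted p = 0.00266). Wfdc18, a small secreted protein with a WAP domain, the fold of several protease inhibitors, read 2.69, 3.24, 2.60, 1.91 and 2.61 against -1.47, -1.25, -0.43, -0.56 and -0.13 in wild type (difference 3.38, SE 0.39, adjusted p = 0.000387). Its relative Wfdc1 went the other way with little spread, from 0.96, 0.80, 1.12, 0.75 and 0.94 in wild type to -0.98, -0.92, -0.72, -0.87 and -0.69 in beta6 null (difference -1.75, SE 0.23, adjusted p = 0.00117). In both genes the groups were fully apart. Among the serpins, Serpinb12 rose (1.39, SE 0.25) and Serpinb1a, an inhibitor of neutrophil serine proteases, fell (-1.42, SE 0.29). Of the 11 genes tested from the list of antiproteases, 1 rose and 1 fell (Wfdc18 and Serpinb1a), and the median was 0.10. Wfdc1 and Serpinb12 were not on that list. Serpinb12 lost its call in 3 of the 15 fits that left out 1 array (adjusted p up to 0.0596, without wild type replicate 5) and Serpinb1a in 9 (0.102, without wild type replicate 5).

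The lysosome was another place where members of 1 family parted. Ctsk, a cysteine protease that degrades elastin and collagen, read 1.34, 2.49, 2.26, 1.84 and 2.30 in beta6 null and 0.067, -2.57, -0.24, -0.57 and 0.15 in wild type (difference 2.68, SE 0.46, adjusted p = 0.00977). Wild type replicate 2 was lowest by far, and the other wild type arrays still lay below every beta6 null array. Igf2r and M6pr are the 2 receptors that carry enzymes tagged with mannose 6-phosphate to the lysosome, and Igf2r rose while M6pr fell. Igf2r read 3.29, 4.34, 2.78, 1.73 and 2.50 in beta6 null against 0.20, 0.16 and 0.66 (replicates 1 and 2 without a value) (difference 2.58, SE 0.50, adjusted p = 0.0292). M6pr read -1.18, -0.37, -0.1, -0.23 and -0.41 against 1.04, 0.73, 0.89, 0.58 and 0.80 in wild type (difference -1.27, SE 0.24, adjusted p = 0.0202). In neither receptor did the groups overlap.

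Ctsb, a broadly expressed lysosomal protease, rose by 1.58 (SE 0.35, adjusted p = 0.0461), but beta6 null replicate 1 lay inside the wild type range. Of 44 cathepsin and lysosome genes 3 rose, 1 fell and 40 did not pass, with a median of 0.12. Plbd1, a phospholipase-like protein of myeloid granules, read 3.66, 3.82, 4.60, 3.27 and 2.94 in beta6 null against -0.25, 1.03, -0.38 and 0.22 (replicate 3 without a value) (difference 3.50, SE 0.46, adjusted p = 0.00144). Pld2, a phospholipase D, fell (-1.26, SE 0.28), as did Pnpla8, a calcium-independent phospholipase (-1.72, SE 0.37), and Smpdl3b, an enzyme related to acid sphingomyelinase (-2.07, SE 0.46). Without 1 array, Igf2r lost its call in 6 of 15 fits (adjusted p up to 0.123, without wild type replicate 3), M6pr in 3 (0.061, without wild type replicate 3), and Ctsb, Pld2, Pnpla8 and Smpdl3b in 14, 14, 14 and 13 (up to 0.141, without wild type replicate 5).

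**Figure D2:**
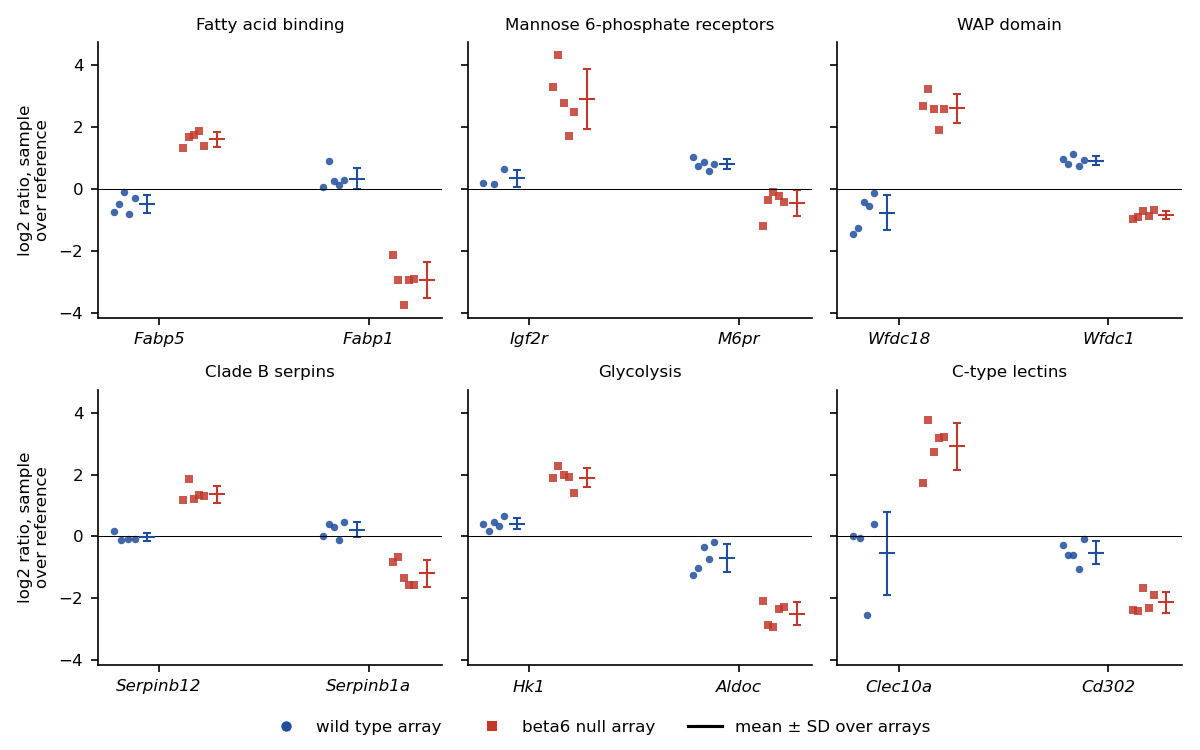
Log2 ratios of sample over reference on each array for 6 pairs of related genes that passed in opposite directions, wild type as blue circles and beta6 null as red squares, with the mean and SD beside each group. The first gene of each pair rose and the second fell; the pairs were chosen after their values were seen.

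Adaptors and lectins of immune signalling held several large rises. Of 36 C-type lectins and immunoreceptor adaptors 5 rose, 1 fell and 30 did not pass, while the median of the list was -0.18. Lat2, a membrane adaptor that carries signals of Fc and other immune receptors, had the largest rise of all features tested. It read 6.09, 4.59, 5.47, 3.83 and 2.72 in beta6 null and -0.49, 0.018, -0.34, -0.15 and 0.083 in wild type (26.3-fold, difference 4.72, SE 0.64, adjusted p = 0.00144). The groups did not overlap, and the lowest beta6 null array was 2.64 above the highest wild type array.

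Further adaptors rose: Blnk, which links the kinase Syk to its targets (2.87, SE 0.61, adjusted p = 0.0408), and Dok2, a docking protein that damps kinase signalling (1.77, SE 0.35, adjusted p = 0.0272). Cd93, a surface glycoprotein of myeloid and endothelial cells with a lectin-like domain, read 0.20, 2.70, 2.52, 2.33 and 2.08 in beta6 null against -1.88, -1.47, -2.04, -1.69 and -1.43 (difference 3.67, SE 0.49, adjusted p = 0.00127). Beta6 null replicate 1 was the low one, and still lay above all wild type arrays. Clec10a, a lectin for galactose and N-acetylgalactosamine, read 1.72, 3.76, 2.74, 3.17 and 3.21 against 0.006, -0.059, -2.54 and 0.41 (replicate 1 without a value) (difference 3.46, SE 0.60, adjusted p = 0.0133), with wild type replicate 4 far below the other wild type arrays. Fgr, a Src-family kinase of myeloid cells, fell (-2.11, SE 0.45, adjusted p = 0.0493), and so did the lectin Cd302 (-1.60, SE 0.26), whose gene lies near Itgb6, and the inhibitory receptor Pilra (-1.51, SE 0.32). Left-out arrays ended the calls of Blnk (10 of 15 fits, adjusted p up to 0.116, without beta6 null replicate 2), Dok2 (6, 0.0892, without beta6 null replicate 2), Fgr (11, 0.141, without wild type replicate 5) and Pilra (12, 0.125, without wild type replicate 3), and none of the calls of Lat2, Cd93, Clec10a and Cd302. Clec10a and Cd302 lost theirs with the 2 groups fitted alone (adjusted p = 0.0766 and 0.0629), after quantile normalization (0.0623 and 0.0779) and with arrays set to equal spread (0.0988 and 0.112).

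Receptors for complement, Fc and microbial ligands split evenly. Of 34 tested 2 rose, 2 fell and 30 did not pass, and the median was 0.01. C3ar1, the receptor of the anaphylatoxin C3a, read 2.85, 3.40, 4.01, 3.22 and 2.80 in beta6 null against 0.30, -1.20, 0.33, 0.77 and 0.28 in wild type (difference 3.16, SE 0.50, adjusted p = 0.00505). Gas6, a ligand that bridges dying cells to phagocytes, rose too (2.88, SE 0.61, adjusted p = 0.0409). Tlr2, the receptor of bacterial lipoproteins, fell from 0.17, 0.16, 1.07, 0.24 and 1.62 in wild type to -1.98, -1.64, -1.80, -2.01 and -1.98 in beta6 null (difference -2.53, SE 0.36, adjusted p = 0.002), where its SD was 0.16. Cfb, a protease of the alternative complement pathway, fell by 1.51 (SE 0.27, adjusted p = 0.0121).

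Fcrls, a scavenger receptor related to Fc receptors, rose (3.01, SE 0.63), as did P2rx4, an ion channel gated by ATP (1.53, SE 0.33), and Klrb1b, a lectin-like receptor (1.34, SE 0.27). Fcgr2b, the inhibitory Fc receptor, read -1.70, 1.60, 1.83, 1.56 and 1.74 in beta6 null against -2.40, -1.05, -1.77, -1.84 and -1.41 and did not pass (2.70, SE 0.68, adjusted p = 0.086). Beta6 null replicates 2 to 5 lay above all wild type arrays, and replicate 1 lay among them. The 2 probes of Klrb1b differed, at 2.26 and 0.22. Gas6 lost its call in 13 of 15 fits without 1 array (adjusted p up to 0.132, without wild type replicate 3), Fcrls in 12 (0.133, without wild type replicate 5), P2rx4 in 13 (0.116, without beta6 null replicate 2) and Klrb1b in 10 (0.101, without beta6 null replicate 2). C3ar1, Tlr2 and Cfb kept their calls in all 15. Over all 29 alternatives, the Xist fit included, they were called in 27, 27 and 25.

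The 2 chemokines that passed rose, and the 2 cytokines that passed fell. These were 4.65% and 4.76% of their lists, against 1.05% of all genes. With so few calls no contrast between the classes is read from them. Of 43 chemokines and receptors 2 rose, 0 fell and 41 did not pass, with a median of 0.42 and 32 members above 0. Ccl9, an attractant of monocytes and dendritic cells, read 1.77, 3.11, 4.29, 3.16 and 3.19 in beta6 null against 0.64, -0.58, -0.006, 0.014 and 1.04 (difference 2.88, SE 0.43, adjusted p = 0.00266). Ccl5, an attractant of T cells and monocytes, read 2.03, 1.76, 1.81, 0.52 and 0.69 against -0.79, -0.39, -1.72, -0.49 and -0.36 (difference 2.11, SE 0.35, adjusted p = 0.00785). Neither gene had overlapping groups.

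Of 42 cytokines and cytokine receptors 0 rose, 2 fell and 40 did not pass, with a median of 0.01 and 22 members above 0. Il18, a cytokine matured by inflammasomes, read -0.74, -0.69, -0.28, -1.24 and 0.22 in wild type and -2.51, -2.74, -2.58, -2.74 and -2.76 in beta6 null (difference -2.12, SE 0.28, adjusted p = 0.00117). Every beta6 null array lay below every wild type array. Tnfsf13b, the B cell survival factor BAFF, fell (-1.60, SE 0.31, adjusted p = 0.025), and lost its call without wild type replicate 3 and without wild type replicate 5 (adjusted p up to 0.0729). Csf1, the growth factor of macrophages, was at 1.47 (SE 0.36, adjusted p = 0.0794) and Il6ra, a receptor subunit for interleukin 6, at -1.38 (SE 0.34, adjusted p = 0.0819); neither passed.

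The calcium-binding S100 proteins and the class II antigen-presenting molecules supplied further rises. S100a4 read 3.83, 3.67, 3.21, 3.26 and 2.78 in beta6 null against 0.88, 0.22, 0.19, 0.083 and 0.11 (difference 3.05, SE 0.45, adjusted p = 0.00266). S100a8, a calgranulin abundant in neutrophils and inflamed myeloid cells, read 1.99, 1.87, 1.004, 1.14 and 1.19 against -0.92, -0.81, -0.28, -0.92 and -0.51 (difference 2.13, SE 0.29, adjusted p = 0.00148). Its partner S100a9 was at 0.70 and did not pass (adjusted p = 0.818). S100a8 was the 1 called of 12 neutrophil markers, whose median was 0.42 and whose mean per array ran from -0.03 to 0.75 in beta6 null and from -0.59 to 0.06 in wild type. Of these 12 markers 7 lay above 0. Il1r2, a decoy receptor of interleukin 1, was at 2.89 (SE 0.93, adjusted p = 0.223) and Mmp8, the neutrophil collagenase, at 1.51 (SE 0.47, adjusted p = 0.189); the granule genes Mpo and Ltf were at -0.48 and -0.12. The part of neutrophil RNA in the rise of S100a8 was not tested.

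H2-Ea, a class II alpha chain, was 5.67-fold higher in beta6 null (difference 2.50, SE 0.44, adjusted p = 0.014), and H2-Aa, another alpha chain, 3.54-fold (difference 1.82, SE 0.39, adjusted p = 0.0409). These were the 2 calls among 20 genes of class II presentation, of which 18 did not pass and 10 lay above 0. Cd74, the invariant chain, was at 1.65 (SE 0.46, adjusted p = 0.132). H2-Ea lost its call without wild type replicate 5 (adjusted p = 0.063), and H2-Aa in 13 of 15 fits without 1 array (adjusted p up to 0.127, without beta6 null replicate 2).

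Genes that mark alveolar macrophages moved both ways, with more falls. Of 31 measured 2 rose, 6 fell and 23 did not pass, so that 25.8% passed, against 1.05% of all genes. The median was -0.50, and 24 lay below 0 and 7 above. Over all features the median was -0.05, and 46.9% lay above 0. The mean of the list ran from -1.46 to -1.05 over the beta6 null arrays and from -0.85 to -0.35 in wild type. In bulk RNA, fewer cells of a type and less RNA per cell cannot be told apart. The list, whose means hold the called genes, was chosen with earlier results of these data known. It holds Flt1, which also marks endothelium, and Krt19, which also marks epithelium. Of the 7 defining markers measured, given above, 0 passed and 5 lay below 0.

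Flt1, a VEGF receptor, had the largest fall of any called gene. It read 1.08, 2.03, 1.03, 1.07 and 0.80 in wild type and -0.89, -2.61, -4.73, -3.39 and -3.17 in beta6 null (17.9-fold lower, difference -4.16, SE 0.54, adjusted p = 0.00117). All wild type arrays lay above the reference and all beta6 null arrays below it. Pecam1, an endothelial marker, was at -0.74 and did not pass (adjusted p = 0.735). Of 13 fibroblast and endothelium markers 2 fell, Flt1 and Eng, with a median of -0.26.

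Single genes of lipid handling changed, with opposite signs. Olr1, a scavenger receptor for oxidised lipoprotein, read -0.52, -0.21, -0.007, -0.96 and 0.13 in wild type and -3.55, -2.65, -3.28, -3.96 and -3.42 in beta6 null (difference -3.06, SE 0.31, adjusted p = 0.000183). Fabp1, a fatty acid-binding protein, read 0.066, 0.91, 0.26, 0.12 and 0.30 in wild type and -2.14, -2.95, -3.76, -2.95 and -2.92 in beta6 null (difference -3.27, SE 0.34, adjusted p = 0.000183). Its relative Fabp5 rose, with little spread, from -0.74, -0.49, -0.093, -0.80 and -0.30 to 1.32, 1.70, 1.75, 1.88 and 1.40 (difference 2.10, SE 0.23, adjusted p = 0.00026). Fabp4, the third of them, was at 0.30 and did not pass (adjusted p = 0.852).

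Cidec, a protein of lipid droplets, fell by 1.35 (SE 0.25), and Scarb1, the receptor of high-density lipoprotein, by 1.18 (SE 0.26). Acaa1a, a thiolase of peroxisomal fatty acid oxidation, fell by 1.91 (SE 0.31, adjusted p = 0.00626). Apoh, an apolipoprotein measured on 3 beta6 null and 4 wild type arrays, fell by 3.68 (SE 0.56, adjusted p = 0.00832). Of 39 genes of lipid uptake, storage and efflux 1 rose, 4 fell and 34 did not pass (median -0.23). In fatty acid oxidation and the peroxisome 1 of 36 fell (median -0.18). Of 29 genes of cholesterol and fatty acid synthesis 0 passed, with 2 at an unadjusted p under 0.05; the desaturase Scd1 was at 2.76 (SE 0.63, adjusted p = 0.0647). Cidec lost its call in 3 of 15 fits without 1 array (adjusted p up to 0.093, without wild type replicate 5) and Scarb1 in 14 (0.134, without wild type replicate 3).

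**Figure D3:**
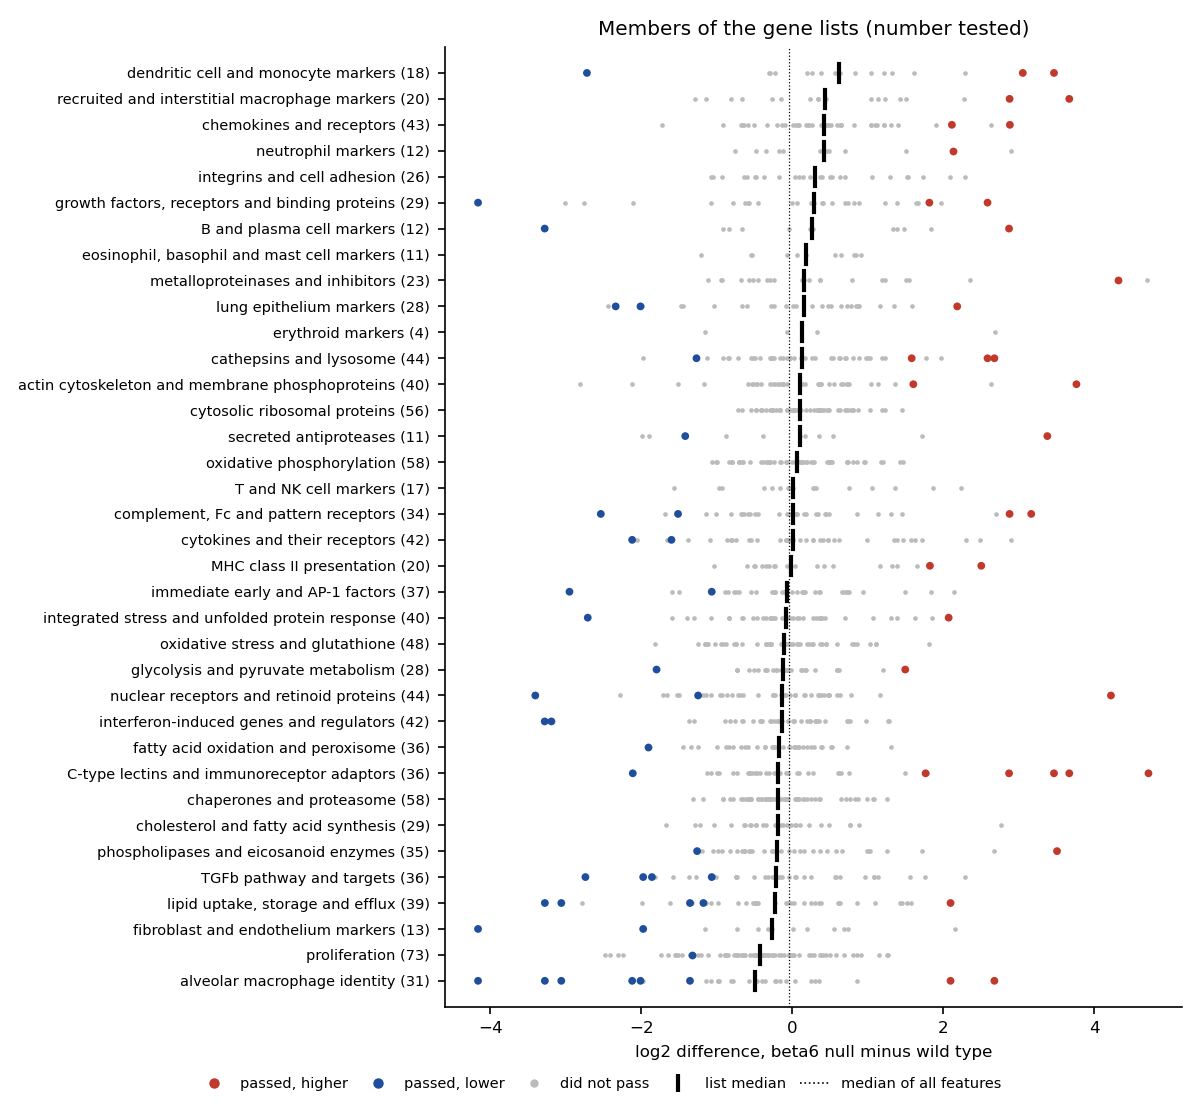
Each row is 1 of 36 gene lists, with the number of members tested, and each point the log2 difference of beta6 null minus wild type of 1 member. Red and blue points passed, grey ones did not, the black bar is the median of the list and the dotted line the median of all features; alveolar macrophage identity and proliferation have the lowest medians, dendritic cell and monocyte markers the highest.

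Several transcription factors and regulators fell. Egr2, an early growth response factor of activated myeloid cells, read 2.02, 2.64, 1.95, 1.95 and 2.30 in wild type and -1.03, -1.22, -0.45, -0.74 and -0.45 in beta6 null (difference -2.95, SE 0.32, adjusted p = 0.00026). Prdm1, the repressor Blimp-1, read -0.27, 1.44, 0.35, 0.11 and 0.67 in wild type and -2.47, -4.38, -2.72 and -1.71 (replicate 3 without a value) in beta6 null (difference -3.28, SE 0.53, adjusted p = 0.0076). Wwtr1, the Hippo pathway coactivator TAZ, fell from 0.15, 0.57, 0.76 and 0.93 (replicate 2 without a value) to -2.47, -2.86, -2.29 and -3.56 (replicate 1 without a value) (difference -3.40, SE 0.67, adjusted p = 0.0401). In these 3 genes the groups were apart over the arrays with a value.

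Mesp1, a basic helix-loop-helix factor, fell by 2.65 (SE 0.35, adjusted p = 0.00117), from 2.14, 2.07, 1.11, 1.65 and 1.86 to 0.028, -0.87, -1.97, -0.70 and -0.93. Noct, a clock-controlled enzyme that acts on NADP(H), had the smallest p of the comparison. It read 1.07, 1.20, 1.71, 0.88 and 1.47 in wild type and -1.11, -1.72, -1.28, -1.08 and -1.07 in beta6 null (difference -2.52, SE 0.24, adjusted p = 0.000183). Nrip1, a corepressor of nuclear receptors, fell by 1.25 (SE 0.24), with one probe at -2.57 and the other at 0.08. Foxn3, a forkhead factor (-2.14), Zbtb1, a zinc finger regulator of lymphocytes (-1.69), Ell2, an elongation factor of RNA polymerase II (-2.42), and Zfp612 (-2.73) fell too. The rises held Nfia (1.09, SE 0.24), a factor of the nuclear factor I family, and Dnmt3a, a DNA methyltransferase (2.11, SE 0.40). Of 37 immediate early and AP-1 factors 2 fell, Egr2 and Klf10, and the median was -0.07. Calls lost without 1 array were those of Wwtr1 (10 of 15 fits, adjusted p up to 0.115), Nrip1 (4, 0.0735), Foxn3 (8, 0.097), Zbtb1 (12, 0.119), Ell2 (10, 0.115), Nfia (13, 0.127) and Dnmt3a (5, 0.0867), the highest p arising without wild type replicate 3, wild type replicate 5 or beta6 null replicate 2.

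In the TGFb pathway 4 genes fell and 0 rose among 36 tested (11.1%, against 1.05% of all genes), with a median of -0.21. This list, too, was chosen with earlier results of these data known. Skil, a TGFb-induced corepressor of SMADs, read 0.15, 0.23, 0.81, 0.25 and 0.70 in wild type and -2.52, -1.52, -1.39, -0.85 and -0.87 in beta6 null (difference -1.86, SE 0.31, adjusted p = 0.00819), and its probes were at -2.04 and -1.65. Klf10, an early gene of TGFb, fell by 1.07 (SE 0.22, adjusted p = 0.0348), and Eng, a TGFb coreceptor, by 1.97 (SE 0.43, adjusted p = 0.0409). Id3, which binds E proteins and keeps them off DNA, read 2.46, -0.53, 1.99, 2.09 and 1.99 in wild type and -1.96, -1.77, -1.69, -0.24 and -0.03 in beta6 null (difference -2.74, SE 0.59, adjusted p = 0.0409); wild type replicate 2 lay inside the beta6 null range. Id1, its relative, was at -1.57 (SE 0.39, adjusted p = 0.0842) and Axl, a receptor of Gas6, at -1.01 (SE 0.25, adjusted p = 0.087), and every array of beta6 null lay below every array of wild type in both. Without 1 array, Klf10 lost its call in 10 of 15 fits (adjusted p up to 0.105, without beta6 null replicate 2), Eng in 12 (0.103, without wild type replicate 5) and Id3 in 11 (0.123, without beta6 null replicate 2), and Skil in 0. Of 26 integrins and adhesion genes 0 passed, with 4 at an unadjusted p under 0.05.

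Interferon-induced genes held 2 falls among 42, Oas3 and Prdm1, and a median of -0.14. Oas3, which makes 2-5 linked oligoadenylate after sensing double-stranded RNA, read 1.40, 1.88, 1.38, 1.18 and 1.56 in wild type and -1.45, -2.24, -1.92, -1.72 and -1.21 in beta6 null (difference -3.19, SE 0.38, adjusted p = 0.000628). The wild type arrays all lay above 1 and the beta6 null arrays all below -1. Plscr1, a membrane protein induced by interferon that the list did not hold, fell by 1.38 (SE 0.27) and lost its call in 4 of 15 fits (adjusted p up to 0.0924, without wild type replicate 5).

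Metabolic enzymes changed one by one. Hal, histidine ammonia-lyase, the first step of histidine breakdown, read 3.17, 3.06, 4.18, 3.48 and 3.10 in beta6 null against 0.14, 0.59, -0.68, 0.34 and 0.038 (difference 3.31, SE 0.40, adjusted p = 0.000628). Hk1, a hexokinase, rose from 0.40, 0.17, 0.46, 0.33 and 0.65 to 1.89, 2.28, 1.99, 1.92 and 1.41 (difference 1.496, SE 0.22, adjusted p = 0.003), and Aldoc, an aldolase, fell from -1.25, -1.02, -0.34, -0.73 and -0.20 to -2.09, -2.87, -2.93, -2.35 and -2.29 (difference -1.80, SE 0.33, adjusted p = 0.0162). These were the 2 calls among 28 genes of glycolysis and pyruvate metabolism, whose median was -0.12. Asns, asparagine synthetase, rose (2.07, SE 0.43, adjusted p = 0.0408), and Eif2ak4, the kinase GCN2 that senses amino acid shortage upstream of it, fell (-2.71, SE 0.56, adjusted p = 0.0403). They were the calls among 40 genes of the integrated stress and unfolded protein responses, with a median of -0.09. Aldoc lost its call in 3 of 15 fits without 1 array (adjusted p up to 0.06, without wild type replicate 5), Asns in 13 (0.112, without wild type replicate 1) and Eif2ak4 in 12 (0.136, without beta6 null replicate 2).

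Large housekeeping programmes held 0 calls by limma, not far from the 1.05% of all genes that passed, so nothing is read from it; 11.5% of all features had an unadjusted p under 0.05. Of 58 oxidative phosphorylation genes 0 passed and 8 had an unadjusted p under 0.05 (median 0.07). The counts were 0 and 8 of 56 cytosolic ribosomal proteins (median 0.10), 0 and 4 of 58 chaperones and proteasome subunits (median -0.19), and 0 and 8 of 48 genes of oxidative stress and glutathione (median -0.10). Proliferation genes lay lower, with 54 of 73 below 0 and a median of -0.42. The 1 that passed was Rrm2, of the enzyme that makes deoxynucleotides (-1.33, SE 0.28, adjusted p = 0.0408), and 21 of the 73 had an unadjusted p under 0.05. Cdk1, the mitotic kinase, was at -1.21 (adjusted p = 0.121) and the chromatin protein Hmgb2 at -1.51 (adjusted p = 0.103). Rrm2 lost its call in 13 of 15 fits without 1 array (adjusted p up to 0.127, without wild type replicate 5).

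Further rises are given here singly, as genes that passed and not as a group. Marcks, an actin-binding substrate of protein kinase C, read 3.50, 4.46, 4.23, 3.85 and 3.26 in beta6 null against 0.68, -0.057, -0.56, 0.21 and 0.21 in wild type (difference 3.76, SE 0.51, adjusted p = 0.00144), and its probes gave 4.44 and 3.10. Basp1, which binds membranes much as Marcks does, rose too (1.60, SE 0.29, adjusted p = 0.0159). These were the 2 calls among 40 genes of the actin cytoskeleton and membrane phosphoproteins (median 0.11). Pmp22, a membrane protein of myelin found in many cells, read 3.65, 3.99, 4.59, 4.22 and 3.22 against 1.64, -0.16, -0.44 and 0.64 (replicate 1 without a value) (difference 3.52, SE 0.77, adjusted p = 0.0487). Dpp4, a surface dipeptidase that trims chemokines, read 3.95, 3.23, 3.52 and 2.96 (replicate 1 without a value) against -1.996, 0.24, 1.14 and 0.049 (replicate 4 without a value) (difference 3.56, SE 0.65, adjusted p = 0.0218). Its gene lies near Itgb6, as given above.

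St8sia4, which builds polysialic acid, rose from -1.03, 0.79, -0.72, -0.37 and -0.17 to 2.26, 2.08, 2.91, 2.97 and 1.66 (difference 2.68, SE 0.38, adjusted p = 0.00187). Plxnb2, a receptor of semaphorins (2.55, SE 0.41), Dlg3, a scaffold of cell contacts (2.94, SE 0.45), Bin1, a protein that bends membranes (2.31, SE 0.36), and Lgals1, galectin-1 (1.77, SE 0.33), rose with adjusted p of 0.0076, 0.00709, 0.00505 and 0.0162. Among smaller rises were Abcb1a, a drug efflux pump (2.26), Igfbp3, a binding protein of insulin-like growth factors (1.81), the ubiquitin ligase Mgrn1 (1.996), Pot1a, which protects telomeres (1.67), and Socs4 (1.27), of a family that restrains cytokine signals. Dpp4 lost its call in 4 of 15 fits without 1 array (adjusted p up to 0.0818, without beta6 null replicate 2), Pmp22 in 11 (0.155, without wild type replicate 3), Basp1 in 2 (0.0536, without beta6 null replicate 2), Lgals1 in 1 (0.051, without wild type replicate 4), Mgrn1 in 1 (0.0527, without wild type replicate 3), and Abcb1a, Igfbp3, Pot1a and Socs4 in 13, 11, 12 and 12 (up to 0.116, without beta6 null replicate 2).

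**Figure D4:**
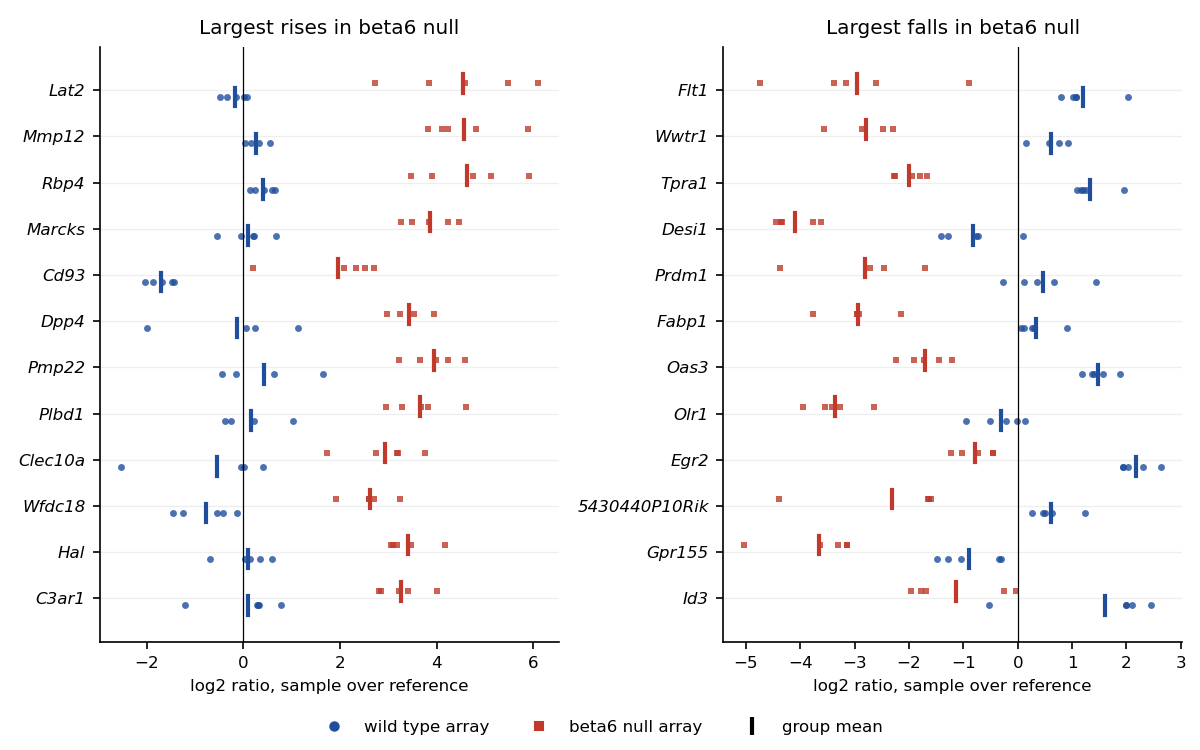
Log2 ratio of sample over reference on every array for the 12 genes with the largest rises and the 12 with the largest falls among called genes that at least 4 arrays of each group measured; blue circles are wild type, red squares beta6 null and bars group means. The groups are apart in every row except Id3, where wild type replicate 2 lies among the beta6 null arrays.

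Several of the largest falls belong to genes outside the programmes described so far. Tpra1, a membrane protein with 7 spans, read 1.19, 1.96, 1.26, 1.09 and 1.16 in wild type and -2.25, -2.28, -1.81, -1.95 and -1.67 in beta6 null (difference -3.33, SE 0.32, adjusted p = 0.000183). Desi1, an enzyme that removes SUMO, read -1.28, 0.10, -0.76, -1.42 and -0.73 and -4.35, -3.76, -4.33, -3.61 and -4.46 (difference -3.28, SE 0.34, adjusted p = 0.000183). Gdap2 read -0.56, 0.27, 0.29, -0.27 and -0.11 and -2.93, -2.80, -2.15, -3.06 and -3.06 (difference -2.73, SE 0.30, adjusted p = 0.000281). The groups were apart by 2.76, 2.20 and 1.59.

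Gpr155, a lysosomal membrane protein that senses cholesterol, fell from -1.49, -1.29, -0.35, -1.04 and -0.30 to -5.03, -3.31, -3.14, -3.14 and -3.64 (difference -2.76, SE 0.40, adjusted p = 0.00237). Ly75, an endocytic receptor of dendritic cells whose gene lies near Itgb6, fell from -0.50, -1.37, -0.62, -0.87 and 0.042 to -4.38, -3.29, -2.91, -3.07 and -3.25 (difference -2.72, SE 0.36, adjusted p = 0.00117). The transcripts 5430440P10Rik (-2.93, SE 0.52) and A930007I19Rik (-2.57, SE 0.37) have no assigned function here; the first read -1.63, -4.38, -1.65 and -1.60 (replicate 1 without a value) in beta6 null and 0.26, 1.23, 0.62, 0.51 and 0.46 in wild type. Sycn (-1.66), Ppp1r16a, a regulatory subunit of protein phosphatase 1 (-1.75), and Reep2 (-1.75) fell and kept their calls in all 15 fits without 1 array. Over all alternatives that gave a value, Sycn was called in 27 of 29, Ppp1r16a in 26 of 28 and Reep2 in 25 of 29.

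Fmr1, the RNA-binding protein lost in fragile X syndrome, fell by 1.58 (SE 0.29, adjusted p = 0.0179), with calls lost without beta6 null replicate 2 and wild type replicate 5 (adjusted p up to 0.063). The remaining named falls, from -1.12 for Tmbim1 to -2.60 for Ubxn11, were those of Cd164, Snrk, Snx10, Sapcd2, Nrsn1, Tuba4a, Fam107b, Topors, Rexo2, Cdc42ep3, Fam114a1, Ofd1 and Utp3. Each of these 15 lost its call in at least 4 of the 15 fits. A further 13 called features, 2 higher and 11 lower, carry no gene symbol, the largest a rise of 2.52 and a fall of -3.56.

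Markers of other cells held calls in several lists, at shares above the 1.05% of all genes: 10.7% of lung epithelium, 16.7% of dendritic cell and monocyte, 10% of recruited macrophage, 16.7% of B and plasma cell and 15.4% of fibroblast and endothelium markers, each from 2 or 3 genes. Of 28 lung epithelium markers 1 rose, 2 fell and 25 did not pass (median 0.15), and the mean of the list ran from -0.79 to -0.27 in beta6 null and from -1.08 to -0.28 in wild type. Sftpc, a surfactant protein, rose by 2.18 (SE 0.47, adjusted p = 0.0459), and Epcam (-2.34, SE 0.42, adjusted p = 0.014) and Krt19 (-2.01, SE 0.40, adjusted p = 0.0272) fell. Scgb1a1, the club cell secretoglobin, was at 0.01 and Cdh1 at -0.09. Of 18 dendritic cell and monocyte markers Clec10a and S100a4 rose and Ly75, which lies near Itgb6, fell (median 0.62). The mean of that list ran from 0.50 to 1.11 in beta6 null and from -0.06 to 0.22 in wild type, so that it was higher on every beta6 null array. The 20 markers of recruited and interstitial macrophages behaved likewise, with means of 0.35 to 0.90 against -0.57 to -0.06, a median difference of 0.44, and 2 calls, Cd93 and Gas6. Both lists were chosen with earlier results of these data known, and their means hold the called genes. Each mean was taken over the members with a value on that array, so the members differ between arrays. Aif1 (2.28, adjusted p = 0.149), Ly6c1 (3.68, adjusted p = 0.118) and Itgae (2.28, adjusted p = 0.141) did not pass.

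The part of monocyte-derived or dendritic cells in the rises of Cd93, Gas6, Clec10a and S100a4 was not tested. Of 12 B and plasma cell markers Blnk rose and Prdm1 fell (median 0.26). Among 17 T and NK cell markers 0 passed and 4 had an unadjusted p under 0.05 (median 0.02). The counts were 0 and 0 among 11 eosinophil, basophil and mast cell markers, and 0 and 1 among 4 erythroid markers. Sftpc lost its call in 11 of 15 fits without 1 array (adjusted p up to 0.161, without beta6 null replicate 2), Krt19 in 6 (0.0867, without wild type replicate 3) and Epcam in 1 (0.0519, without wild type replicate 5).

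The called features are next given by array, as a description, since they were chosen for their difference on these same arrays. The median over the 48 risen features was 2.03, 2.37, 2.23, 1.66 and 1.44 on beta6 null replicates 1 to 5, against -0.51, -0.65, -0.31, -0.38 and -0.07 in wild type. Over the 78 fallen features it was -2.14, -2.27, -2.16, -2.27 and -1.80 in beta6 null, against -0.27, -0.12, -0.11, -0.29 and 0.11. Beta6 null replicate 5 had the narrowest spread of its group (SD 0.916); it was the lowest beta6 null array for 20 of the 48 risen features and the highest for 23 of the 78 fallen ones.

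**Figure D5:**
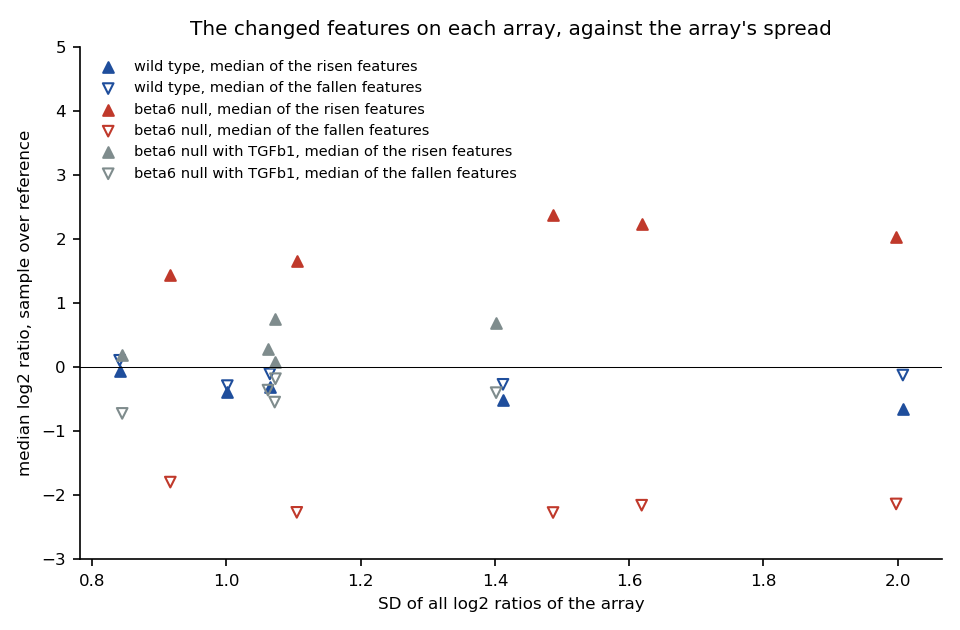
Each of the 15 arrays is shown by a filled and an open point, at the SD of all its log2 ratios on the horizontal axis, with the median log2 ratio of the 48 risen features (filled) and of the 78 fallen features (open) on the vertical axis. The beta6 null arrays lie between 1.44 and 2.37 for the risen and between -2.27 and -1.80 for the fallen features, and the wild type arrays between -0.65 and 0.11 for both.

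In the samples of beta6 null mice with the TGFb1 transgene the called features mostly stood between the other groups. The mean with TGFb1 lay between those of wild type and beta6 null for 47 of the 48 risen and 58 of the 78 fallen features, and for 20 of the fallen it lay above wild type. Plbd1 averaged 0.17 with TGFb1 beside 0.15 in wild type and 3.66 in beta6 null, and Il18 -0.20 beside -0.55 and -2.67. Flt1 averaged -1.74 beside 1.20 and -2.96, nearer to beta6 null, as did Rrm2 (-1.39 beside -0.13 and -1.46) and H2-Aa (1.18 beside -0.48 and 1.34). Aldoc with TGFb1 (0.22) stood above wild type (-0.71). The features were chosen for their gap between wild type and beta6 null, in a fit that the TGFb1 arrays also entered. The same share over all features was not counted. The beta6 null arrays enter both comparisons, so this order is no separate result.

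Xist, which coats and silences an X chromosome in female cells, differed between the arrays in a way the labels do not explain. It read -1.45, 0.22, 0.79, -2.46 and 0.88 in beta6 null and -4.14, -2.62, -3.46, -2.37 and -2.89 in wild type (difference 2.69, SE 0.59, adjusted p = 0.0444), and -3.01, -3.48, -3.17, -3.44 and -2.27 with TGFb1. The Y-linked Eif2s3y was at -1.02 (SE 0.59, adjusted p = 0.524) and Uty at -1.09. With the Xist level of each array as a covariate 0 features passed by limma. Of the 125 called features other than Xist, 117 kept an unadjusted p under 0.05, and 923 had one over all features. The differences of these 125 were a median of 0.973 of those without the covariate. They were chosen for their difference on these same arrays, so this is no separate support for the calls. For 6 of the 113 named genes the difference moved by over 1.5 times, all towards 0: Asns from 2.07 to 1.09, Ubxn11 from -2.60 to -1.23, Ell2 from -2.42 to -1.32, Ofd1 from -2.21 to -1.25, Dlg3 from 2.94 to 1.78 and Nrip1 from -1.25 to -0.76. The part of the sex of the mice in the calls was not tested, and Xist itself lost its call in 13 of 15 fits without 1 array (adjusted p up to 0.128, without beta6 null replicate 2).

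The titles of the arrays end in 1 or 2, a suffix whose meaning is not given. It was 1 on 4 of the 5 beta6 null and 2 of the 5 wild type arrays. With the suffix as a block 66 features passed. Within suffix 1, and within suffix 2, which holds 1 beta6 null array, 0 features passed after adjustment over all, and 1423 and 573 had an unadjusted p under 0.05. The called features were chosen on these same arrays, so their signs there are no separate support. Of the 113 called genes with a symbol, 48 passed whichever of the 15 arrays was left out. The count of 126 was 68 without beta6 null replicate 2, 81, 64, 76 and 63 without wild type replicates 1, 3, 4 and 5, and 82 without replicate 4 of the TGFb1 group. It was 180 without the 2 widest arrays.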

How the data were processed

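The deposited values are taken as log2 ratios of each sample over the common reference, 1 per probe and array. The log base and the direction are read from the values, the channel order and the rise of Mmp12, since neither is stated. The array software, background correction and normalization used by the authors are not given in the sources used here. Of 17225 probes 30 controls were left out, and of the 17195 used 13972 had 1 gene symbol, 13 several and 3210 none listed; 13869 were matched to current symbols by Entrez number. Probes of 1 gene were averaged (988 genes had several) after centring each array on its median, and 0 columns belonged to no sample.

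Features with at least 3 values in each of the 3 groups were fitted with limma 3.58.1 (R 4.3.3; lmFit and eBayes on 15 arrays), which leaves missing values out, with Benjamini-Hochberg adjustment over all 13273 features at 0.05. Tables were made with Python 3.11.15, pandas 2.3.3 and numpy 2.4.6. The fit was checked on simulated data. Arrays carry no read depth; the number of arrays limits the precision. Named genes are those that passed, up to 2 per list that did not pass with the smallest unadjusted p under 0.05, and a few fixed genes. Pecam1, S100a9, Mpo, Ltf, Scgb1a1, Cdh1, Fabp4, Siglecf, Itgax, Eif2s3y and Uty were chosen after their values were seen. The comparison and the gene lists were chosen with earlier results of these data known. Alternatives were other centring and scaling, filters, weights, blocks, a Xist covariate and leaving out arrays.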

Additional observations from a re-analysis of the deposited data

Results flagged for a closer look

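In 22 of the 224 groups of arrays examined for the called genes, 1 array stood far from the others of its group. Chance gives about 1 in 20, or 11.2 groups. The values are log2 ratios of sample over reference, with the range of the other arrays of the group. On wild type replicate 2 this was so for C3ar1 (-1.20, others 0.28 to 0.77), Ctsk (-2.57, others -0.57 to 0.15), Bin1 (-2.34, others -1.07 to -0.56), Pot1a (-2.01, others -0.54 to -0.23), Eng (2.46, others 0.32 to 0.82), Id3 (-0.53, others 1.99 to 2.46), Fabp1 (0.91, others 0.066 to 0.30), Tpra1 (1.96, others 1.09 to 1.26) and Flt1 (2.03, others 0.80 to 1.08). On beta6 null replicate 1 this was so for Cd93 (0.20, others 2.08 to 2.70), Lgals1 (2.03, others 0.73 to 1.09), M6pr (-1.18, others -0.41 to -0.1), Ubxn11 (-1.61, others -3.32 to -3.12), Ly75 (-4.38, others -3.29 to -2.91) and Gpr155 (-5.03, others -3.64 to -3.14). On wild type replicate 1 this was so for S100a4 (0.88, others 0.083 to 0.22), Serpinb12 (0.16, others -0.12 to -0.074) and Smpdl3b (-2.39, others -0.73 to -0.42). On beta6 null replicate 3 this was so for Krt19 (-4.25, others -3.22 to -2.94) and 5430440P10Rik (-4.38, others -1.65 to -1.60). On wild type replicate 4 this was so for Clec10a (-2.54, others -0.059 to 0.41). On beta6 null replicate 2 this was so for Serpinb12 (1.84, others 1.17 to 1.33). Of the 22, 9 came from wild type replicate 2 and 6 from beta6 null replicate 1; both have a wide spread over all probes.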

How the results depend on the processing

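All 113 called genes with a symbol kept their sign under every alternative that gave them a value (up to 29, the fits within a title suffix not counted). The genes were chosen for their difference on these same arrays, so their signs are no separate support. Of these genes 24 stayed called in all the alternatives so counted except the fit with Xist, and none within a title suffix. The count of 126 called features (48 higher, 78 lower; 38.1% higher) was 45 with the 2 groups fitted alone, 76 after quantile normalization (40 higher, 36 lower), 61 with arrays set to equal spread (30 higher, 31 lower), 66 without the 2 arrays whose title numbers stand apart, 422 with array weights, 66 when blocked by title suffix, 0 with Xist as a covariate, and 0 within title suffix 1 and within title suffix 2. The cause was not tested. With 1 array left out it ran from 63 to 154. Values that reversed, all of genes that did not pass, were Col6a2 (-0.11), Fau (-0.027), Itgb6 (-0.19) and Itgb5 (-0.29) within suffix 2, Itgav (-0.11) within suffix 1, and Tgfb1 (0.25 with all arrays; -0.73 to 0.77 with 1 left out) without beta6 null replicate 2 (-0.18), without wild type replicate 2 (-0.73) and without the 2 widest arrays (-0.41). Of 1116 list medians under alternatives 43 moved by more than the spread between arrays. No paired analysis was possible because the labels give no replicate numbers shared between the groups. Signal over background is unknown, so low signals could not be set apart.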

Other observations

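Some genes had values almost only in 1 group and were not tested. There were 23 genes with values on at least 4 beta6 null arrays and at most 1 wild type array, and 44 the other way round. Why a value is missing is not stated.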
